A study of Homo sapiens with 10 samples.

Results

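Genes of cholesterol and fatty acid synthesis were followed after knockdown of HDAC3 or DNMT1 in MM.1S, an established line of human multiple myeloma. The list held 37 genes of the mevalonate pathway, the sterol branch, fatty acid synthesis and the control of SREBP, and each gene was read by the probe set of its own with the highest mean signal over the 10 arrays. Of these, 33 were measured among 19775 genes in all. FDFT1, CYP51A1, FADS1 and NR1H2 were not analysed here; CYP51A1 and FADS1 had 2 and 3 probe sets, each shared with another gene symbol, and no probe set was named for FDFT1 or NR1H2. The cells were infected with lentivirus carrying a short hairpin RNA, and RNA was taken 48 h after infection. There were 5 groups of 2 arrays: shLuc, a hairpin against luciferase that served as control; shHDAC3#1 and shHDAC3#2, against the histone deacetylase HDAC3; and shDNMT1#1 and shDNMT1#2, against the maintenance DNA methyltransferase DNMT1. All groups were the same cell line. The labels name shLuc as the control of the HDAC3 hairpins and do not say whether the DNMT1 arrays were infected and hybridized together with it, so that in each DNMT1 comparison such a batch and the hairpin cannot be told apart. Whether the 2 arrays of a group hold RNA of separate cultures is not in the labels, and p-values here reflect array-to-array spread that may be technical. In such bulk RNA, fewer cells of a type and less RNA per cell cannot be told apart.

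Cells build cholesterol from acetyl-CoA through mevalonate and the isoprenoid diphosphates, then close squalene to lanosterol and trim it in several steps. Fatty acids start from the same acetyl-CoA, made in the cytosol from citrate, and are lengthened by fatty acid synthase and, on the endoplasmic reticulum, by the elongation cycle. The SREBP transcription factors drive many genes of both pathways. They are held in the endoplasmic reticulum with SCAP and the INSIG proteins while sterols are plentiful, and are otherwise carried to the Golgi and cut free by the proteases encoded by MBTPS1 and MBTPS2. HDAC3 works in the NCoR and SMRT co-repressor complexes, which are well known for the control of lipid metabolism in liver, and plasma cells need membrane lipid for their large endoplasmic reticulum.

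The promoters of the members that were called lower with every hairpin are shown because SREBP is known to act together with NF-Y, a factor of the CCAAT box, and with Sp1, a factor of GC boxes of the letters GGGCGG. Each run holds the 250 bases before the most upstream start in the RefSeq table of GRCh38.p14, written 5′ to 3′ on the strand of the gene, and capitals mark both of these and the sterol regulatory element TCACNCCAC, on either strand. The SREBF2 promoter is added because it was the only 1 of the 29 member promoters in the table that held this element. The windows lie at chr5:43313413-43313662 on the minus strand (HMGCS1), chr10:1056705-1056954 on the minus strand (IDI1), chr4:110198616-110198865 on the minus strand (ELOVL6), chrX:21839367-21839616 on the plus strand (MBTPS2) and chr22:41832855-41833104 on the plus strand (SREBF2).
HMGCS1: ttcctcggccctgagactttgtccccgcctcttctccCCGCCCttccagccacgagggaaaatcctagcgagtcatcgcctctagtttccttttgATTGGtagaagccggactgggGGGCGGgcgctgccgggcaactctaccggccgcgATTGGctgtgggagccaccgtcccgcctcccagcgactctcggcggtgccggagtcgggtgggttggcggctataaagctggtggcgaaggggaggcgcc
IDI1: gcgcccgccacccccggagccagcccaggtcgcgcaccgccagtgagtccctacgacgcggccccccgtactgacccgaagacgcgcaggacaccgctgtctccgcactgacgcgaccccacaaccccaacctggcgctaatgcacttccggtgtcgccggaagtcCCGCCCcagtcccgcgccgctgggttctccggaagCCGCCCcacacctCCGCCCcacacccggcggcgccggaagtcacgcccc
ELOVL6: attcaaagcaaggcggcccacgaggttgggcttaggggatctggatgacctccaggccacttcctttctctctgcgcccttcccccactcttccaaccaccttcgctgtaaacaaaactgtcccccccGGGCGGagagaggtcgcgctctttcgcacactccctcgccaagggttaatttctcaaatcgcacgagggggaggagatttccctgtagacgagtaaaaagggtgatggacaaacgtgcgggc
MBTPS2: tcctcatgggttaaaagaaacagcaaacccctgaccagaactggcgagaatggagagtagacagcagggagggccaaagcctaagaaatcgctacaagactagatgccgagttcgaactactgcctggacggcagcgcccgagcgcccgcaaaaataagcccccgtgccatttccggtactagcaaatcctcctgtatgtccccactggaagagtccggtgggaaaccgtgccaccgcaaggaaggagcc
SREBF2: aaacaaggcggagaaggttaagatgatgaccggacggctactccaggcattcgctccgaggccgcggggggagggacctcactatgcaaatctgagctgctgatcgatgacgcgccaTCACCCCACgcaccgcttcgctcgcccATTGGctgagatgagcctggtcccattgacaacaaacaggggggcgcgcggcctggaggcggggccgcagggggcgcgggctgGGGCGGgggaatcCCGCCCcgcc
The HMGCS1 run held CCAAT 2 times and GGGCGG 2 times, that of IDI1 held GGGCGG 3 times, that of ELOVL6 held it once and that of MBTPS2 held none of the 3 motifs. Over the 300-base windows of the table, which add 50 bases after the start and can hold several starts of a gene, 21 of the 29 members with a window held CCAAT (72.4%) against 39.7% of 27305 genes. GGGCGG was in 25 of 29 (86.2%) against 48.3%, and TCACNCCAC in 1 of 29 (3.45%) against 1.39%. Of the 17 members with a window that were called lower with at least 1 hairpin, 12 held CCAAT, and so did 9 of the 12 others. The printed run of IDI1 lacked the CCAAT box, but its 300-base windows held it. IDI1 is therefore counted among the 21 members with this box. The 27305 genes were not limited to those measured here, and a gene with more starts had more windows in which to match. All these matches are a description of the letters in the windows.

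Both targets were lower with their own hairpins. HDAC3 changed by -1.09 and -1.26 on the log2 scale with shHDAC3#1 and shHDAC3#2, and DNMT1 by -2.53 and -2.24 with shDNMT1#1 and shDNMT1#2. DNMT1 was also lower with both HDAC3 hairpins (-1.20 and -0.65), and HDAC3 with shDNMT1#2 (-0.60, limma adjusted p = 0.019). Log2 values spread more widely in shLuc (SD 1.943 and 1.929) than in the other arrays (1.843 to 1.915). ACTB signal at the 3′ end minus that at the 5′ end, which reads RNA integrity, was 0.98 and 1.02 in shHDAC3#1 and lay between 0.63 and 0.81 in the other arrays. The 8 plasma cell and myeloma markers summed to 75.4 to 75.5 in shLuc, 72.9 to 75 in the HDAC3 hairpin arrays, 70 to 71.5 in shDNMT1#1 and 72.1 to 72.7 in shDNMT1#2. Except in shDNMT1#1, these sums join markers that moved in opposite directions. In shDNMT1#1, CD38 overlapped the shLuc arrays and the other markers lay below both of them. MZB1 was at 8.71 and 8.56 there, against 10.22 and 10.36 in shLuc. In shHDAC3#1, SDC1, SLAMF7 and MZB1 lay below both shLuc arrays, TNFRSF17, CD38, PRDM1 and XBP1 above them, and IRF4 overlapped them. In shDNMT1#2, CD38 and MZB1 lay above both shLuc arrays and the other markers below. The epithelial markers (3 genes) summed to 15.2 to 15.3 in shLuc and 15.1 to 15.6 in shHDAC3#1, shHDAC3#2 and shDNMT1#1. In shDNMT1#2 their sum was 16.1 to 17. The part of the ACTB difference and of the markers in the results was not tested; the SD was fitted as a covariate for the averaged knockdowns.

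The first question was how the pathway responded to each hairpin. A gene was called at a limma p-value, adjusted over all 19775 genes, under 0.05. With shHDAC3#1, 16 of 33 members were lower (48.5%) and 2 higher, against 16.6% of all genes lower and 7.83% higher (24.4% in either direction). With shHDAC3#2, 14 were lower (42.4%) and 0 higher, against 9.54% and 1.31% (10.9% in either direction). Of the DNMT1 hairpins, shDNMT1#1 had 7 lower (21.2%) and 0 higher, against 6.81% and 1.34% (8.15% in either direction), and shDNMT1#2 had 13 lower (39.4%) and 2 higher, against 15.2% and 11.6% (26.8% in either direction). At an unadjusted limma p under 0.05, 1 member was higher with shHDAC3#2 and 1 with shDNMT1#1. The median log2 change of the members was -0.27, -0.21, -0.09 and -0.21 for shHDAC3#1, shHDAC3#2, shDNMT1#1 and shDNMT1#2, where the median of all genes was 0.06, 0.05, 0.05 and 0.08.

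Most members gave bright signals, and bright genes were called more often. Among the genes at or above the median level, 29 were members, and 15 of these were lower with shHDAC3#1 (51.7%), against 29.9% of all such genes. The same shares were 41.4% against 17.3% with shHDAC3#2, 27.6% against 13.9% with shDNMT1#1 and 34.5% against 26.3% with shDNMT1#2. Read against genes of this level, the share with shDNMT1#2 was near the background. A further quantile normalization of the arrays changed the split between lower and higher members from 16 and 2 to 10 and 9 with shHDAC3#1, and from 13 and 2 to 10 and 8 with shDNMT1#2. With shHDAC3#2 and shDNMT1#1 it left 10 lower and 7 lower, with 0 higher in both.

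**Figure D1:**
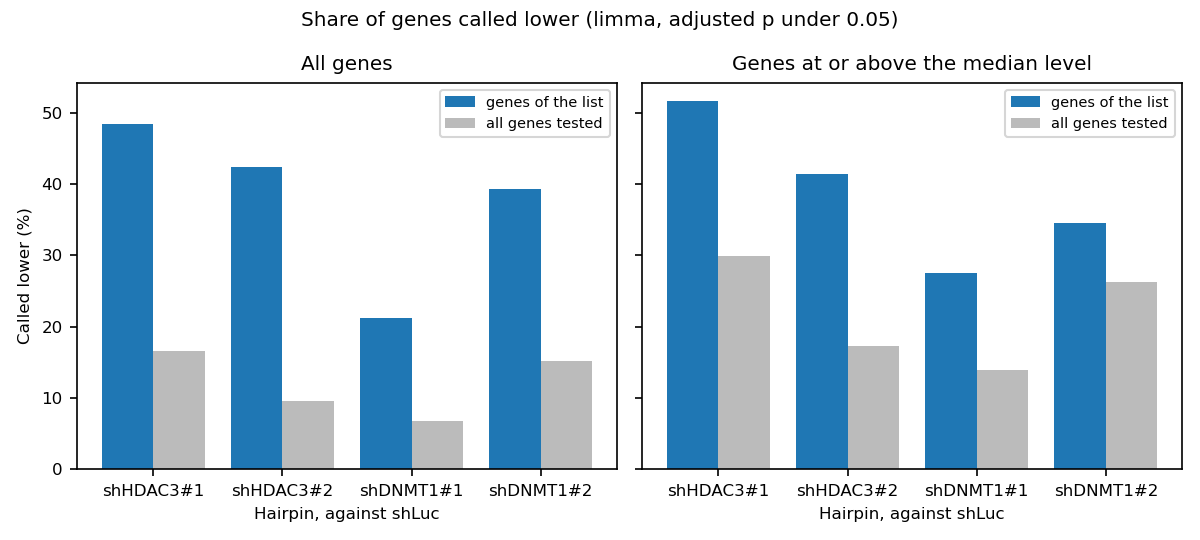
Share of genes called lower with each hairpin against shLuc, in percent, for the genes of the list (blue) and all genes tested (grey). On the left are all 33 members and 19775 genes; on the right are the 29 members and 9888 genes at or above the median level, where the gap narrows to 34.5% against 26.3% with shDNMT1#2.

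Without shLuc replicate 1, the members called in either direction went from 18 to 11 with shHDAC3#1, from 14 to 8 with shHDAC3#2 and from 15 to 9 with shDNMT1#2. Leaving out replicate 1 of the hairpin itself gave 10 with shHDAC3#1, 7 with shHDAC3#2 and 11, up from 7, with shDNMT1#1. All 4 comparisons share the same shLuc arrays, so that a deviation of these arrays enters each of them.

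**Figure D2:**
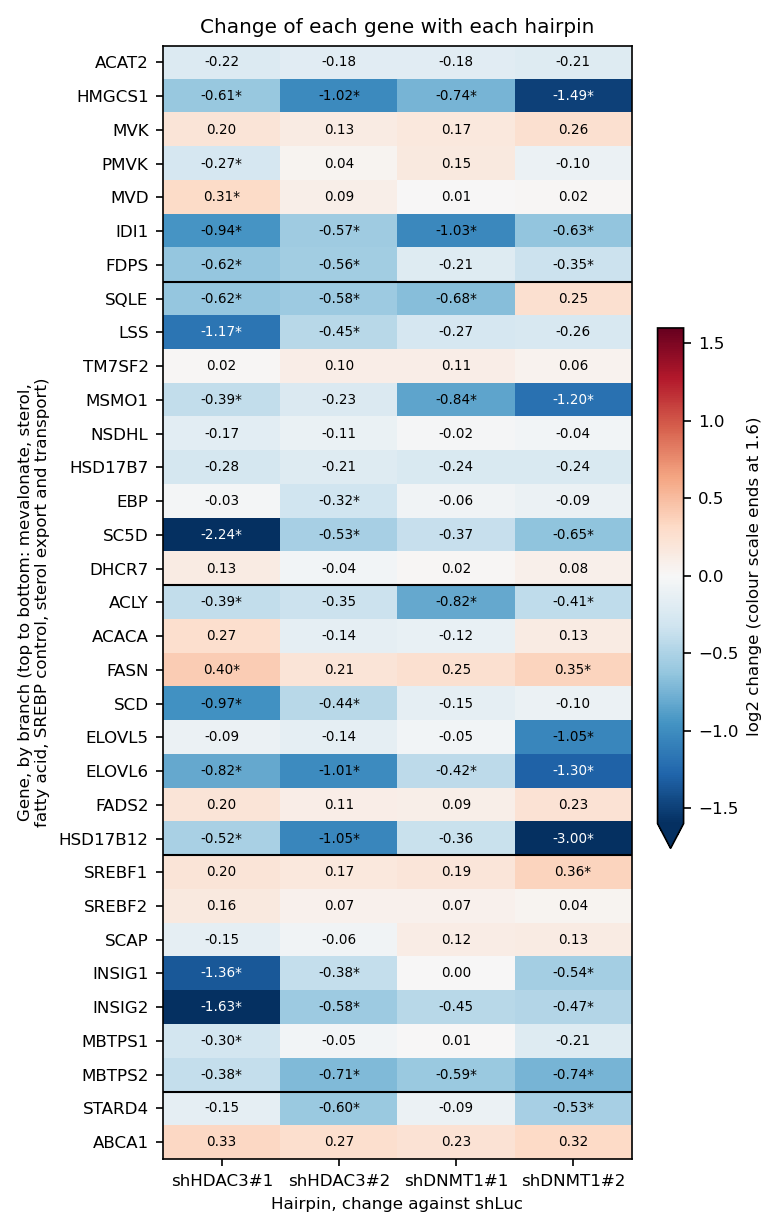
Log2 change of each of the 33 genes (rows, by branch) with each hairpin against shLuc (columns). Blue is lower and red is higher, and an asterisk marks a limma adjusted p under 0.05. HMGCS1, IDI1, ELOVL6 and MBTPS2 carry an asterisk in all 4 columns, and the largest decrease is HSD17B12 with shDNMT1#2 (-3). Lower with all 4 hairpins were 12.1% of the members and 3.18% of all genes, and the 4 columns share the shLuc arrays.

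In the mevalonate branch, the early enzyme HMGCS1, the isomerase IDI1 and the farnesyl diphosphate synthase FDPS fell, while the other members mostly passed no test. HMGCS1, which makes HMG-CoA, had log2 signals of 8.54 and 8.22 in shLuc, 7.73 and 7.81 in shHDAC3#1, 7.27 and 7.45 in shHDAC3#2, 7.63 and 7.65 in shDNMT1#1, and 6.84 and 6.94 in shDNMT1#2. All 8 knockdown arrays lay below both shLuc arrays, and shDNMT1#2 lay lowest. The log2 change was -0.61 ± 0.11 (limma SE, n = 2 against 2), -1.02, -0.74 and -1.49 for shHDAC3#1, shHDAC3#2, shDNMT1#1 and shDNMT1#2, with adjusted p = 0.00032, 1.2e-06, 0.00011 and 2.7e-09 (limma). Each limma SE draws on the spread within all 5 groups and on that of other genes. It is not the spread of the 2 and 2 arrays alone. HMGCS1 was called with each hairpin under all 18 alternatives tried for single hairpins. Other settings were run for the averaged hairpins of a target alone. With the hairpin as a random block its call was lost in HDAC3 and DNMT1 knockdown (limma adjusted p = 0.2 and 0.097). With the array SD as a covariate it was lost in HDAC3 knockdown (limma adjusted p = 0.34) and kept in DNMT1 knockdown.

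IDI1, which interconverts the isoprenoid diphosphates, gave 9.35 and 9.13 in shLuc, 8.25 and 8.35 in shHDAC3#1, 8.55 and 8.78 in shHDAC3#2, 8.28 and 8.13 in shDNMT1#1, and 8.65 and 8.56 in shDNMT1#2. Again no knockdown array reached the control, and here shDNMT1#1 and shHDAC3#1 lay lowest. Its changes were -0.94, -0.57, -1.03 and -0.63, in the same order of hairpins, with adjusted p between 9e-07 and 0.00055. Another bright probe set of IDI1 was at -0.96, -0.54, -0.86 and -0.43, but both are of the kind that can cross-hybridize. A dimmer probe set of that kind (mean 5.21) gave -0.13, 0.14, -0.12 and 0.40. The probe set left without that kind had a mean of 2.91 and was at 0.18, 0.13, -0.09 and 0.09.

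FDPS joins isoprenoid units to farnesyl diphosphate. Its signal was 9.69 and 9.72 in shLuc, 9.05 and 9.13 in shHDAC3#1, 9.04 and 9.25 in shHDAC3#2, 9.57 and 9.43 in shDNMT1#1, and 9.37 and 9.34 in shDNMT1#2. Both HDAC3 hairpins (-0.62 and -0.56, adjusted p = 4.1e-05 and 0.00021) and shDNMT1#2 (-0.35, adjusted p = 0.008) passed the test, and shDNMT1#1 did not (-0.21, adjusted p = 0.21). The call with shDNMT1#2 was lost after a further quantile normalization (0.02, adjusted p = 0.85, against 0.0028 at the lowest over its alternatives), without shLuc replicate 1 (adjusted p = 0.054) and without shDNMT1#2 replicate 2 (adjusted p = 0.063).

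PMVK, the second kinase, was lower with shHDAC3#1 (-0.27, adjusted p = 0.041), and MVD, the decarboxylase, was higher there (0.31, adjusted p = 0.033), each near the threshold. The PMVK call held under 8 of 17 alternatives and was lost without any 1 of the shLuc, shHDAC3#1 or shDNMT1#2 arrays (adjusted p = 0.054 to 0.31). That of MVD held under 14 of 17 and was lost without shLuc replicate 1 (adjusted p = 0.23) or without shHDAC3#1 replicate 1 or 2 (0.14 and 0.13). The thiolase ACAT2 was between -0.22 and -0.18 with each hairpin and the first kinase MVK between 0.13 and 0.26, with no call. MVK was called higher with shHDAC3#1 (0.37) and shDNMT1#2 (0.45) after a further quantile normalization. By branch, 4 of 7 genes were lower with shHDAC3#1, 3 with shHDAC3#2, 2 with shDNMT1#1 and 3 with shDNMT1#2, where the shares of all genes lower were 16.6%, 9.54%, 6.81% and 15.2%.

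**Figure D3:**
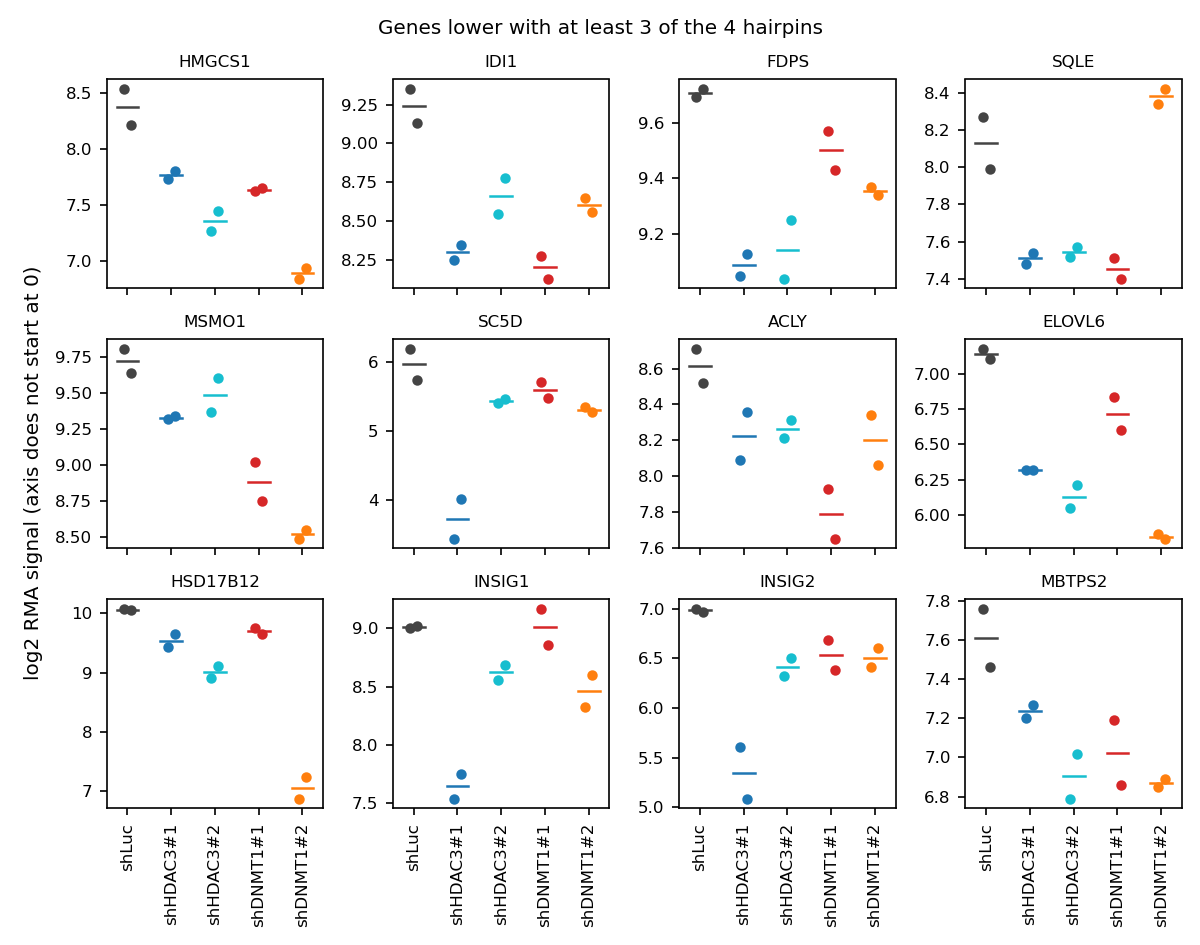
Log2 RMA signal (vertical axis, not starting at 0) of the 12 genes called lower with at least 3 hairpins, by group (horizontal axis), with a point for each array and a line for the mean of the 2 arrays. In 10 of the 12 genes every knockdown array lies below both shLuc arrays. SQLE in shDNMT1#2 and 1 array of INSIG1 in shDNMT1#1 lie above. The 12 genes were picked as lower against these same shLuc arrays, so little overlap follows from the choice. The share of all genes without such overlap was not computed. Lower with at least 3 hairpins were 36.4% of the members and 7.81% of all genes.

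Lanosterol synthase LSS and the desaturase SC5D fell most with shHDAC3#1, the methyl oxidase MSMO1 fell most with shDNMT1#2, and the late enzymes TM7SF2, NSDHL, HSD17B7 and DHCR7 passed the test with no hairpin. HDAC3 and DNMT1 hairpins were not tested against each other. LSS, which closes squalene epoxide to lanosterol, gave 8.67 and 8.60 in shLuc, 7.36 and 7.57 in shHDAC3#1, 8.13 and 8.24 in shHDAC3#2, 8.48 and 8.24 in shDNMT1#1, and 8.35 and 8.4 in shDNMT1#2. Every knockdown array was below the control and shHDAC3#1 stood well below the rest. The changes were -1.17 (adjusted p = 4.3e-08) and -0.45 (adjusted p = 0.0054) with the HDAC3 hairpins, and -0.27 (adjusted p = 0.13) and -0.26 (adjusted p = 0.075) with the DNMT1 hairpins. The LSS call with shHDAC3#2 was lost without shLuc replicate 1 (-0.42, adjusted p = 0.087) and without shHDAC3#2 replicate 1 (-0.39, adjusted p = 0.093).

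SC5D, which places a double bond in the sterol ring late in the pathway, was at 6.19 and 5.74 in shLuc, 3.44 and 4.01 in shHDAC3#1, 5.40 and 5.46 in shHDAC3#2, 5.71 and 5.48 in shDNMT1#1, and 5.35 and 5.27 in shDNMT1#2. The shHDAC3#1 arrays, in which the ACTB difference was also largest, lay far below all others. The change was -2.24 ± 0.17 (limma SE, n = 2 against 2) there (adjusted p = 3e-09), and -0.53 (adjusted p = 0.04), -0.37 (adjusted p = 0.2) and -0.65 (adjusted p = 0.0059) with the other hairpins. Without shLuc replicate 1, the calls with shHDAC3#2 (-0.31, adjusted p = 0.67) and shDNMT1#2 (-0.43, adjusted p = 0.19) were lost. The shHDAC3#2 call was lost as well without shHDAC3#2 replicate 1 or 2 (adjusted p = 0.23 and 0.1) or shDNMT1#2 replicate 1 or 2 (0.052 each), and it held under 7 of 17 alternatives. Genes of other cell types gave signals as low as those of SC5D in shHDAC3#1 (ADIPOQ, an adipocyte gene, 3.61 to 4.04 over the 10 arrays), so its signal there may be at background and the true decrease, also against shHDAC3#2, may be larger than the value given. The other SC5D probe set, with a mean of 3, lay between -0.03 and 0.18.

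MSMO1, which takes part in the removal of methyl groups from the sterol ring, gave 9.81 and 9.64 in shLuc, 9.32 and 9.34 in shHDAC3#1, 9.37 and 9.61 in shHDAC3#2, 9.02 and 8.75 in shDNMT1#1, and 8.49 and 8.55 in shDNMT1#2. The shDNMT1 arrays were the lowest, with no overlap with the HDAC3 arrays. It fell by 0.84 and 1.2 with shDNMT1#1 and shDNMT1#2 (adjusted p = 1.4e-05 and 2.6e-08) and by 0.39 with shHDAC3#1 (adjusted p = 0.009); shHDAC3#2 was not called (-0.23, adjusted p = 0.2). The shHDAC3#1 call was lost after a further quantile normalization (-0.06, adjusted p = 0.64), without shLuc replicate 1 (-0.31, adjusted p = 0.17) and without shHDAC3#1 replicate 1 (-0.38, adjusted p = 0.075).

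SQLE, the squalene epoxidase, gave 8.27 and 7.99 in shLuc, 7.48 and 7.54 in shHDAC3#1, 7.52 and 7.57 in shHDAC3#2, 7.51 and 7.40 in shDNMT1#1, and 8.34 and 8.42 in shDNMT1#2. Those of shDNMT1#2 lay above the control and the other knockdown arrays below it. The changes were -0.62, -0.58, -0.68 and 0.25, with adjusted p = 0.00013, 0.00049, 0.00016 and 0.081. After a further quantile normalization SQLE was called higher with shDNMT1#2 (0.43, adjusted p = 0.0026). Its other probe sets, at means of 7.45, 5.90 and 5.62, lay between -0.18 and 0.13 with the first 3 hairpins, so the decrease rested on a single probe set. With shDNMT1#2 they were at 0.42, 0.58 and -0.07. The isomerase EBP was called lower with shHDAC3#2 alone (-0.32, adjusted p = 0.023), a call lost without shLuc replicate 2 (adjusted p = 0.17) or shHDAC3#2 replicate 1 or 2 (0.11 and 0.098), while a second EBP probe set (mean 8.28) gave -0.45, -0.77, -0.52 and -0.54. After a further quantile normalization that EBP call was lost (-0.11, adjusted p = 0.48), and EBP was called higher with shHDAC3#1 (0.30, adjusted p = 0.015) and shDNMT1#2 (0.28, adjusted p = 0.024). Another EBP probe set, at 6.80, was at -0.18, -0.73, -0.48 and -0.37, and the dimmest, at 5.82, lay between 0.13 and 0.26. In all, 4 of 9 sterol genes were lower with each HDAC3 hairpin and 2 of 9 with each DNMT1 hairpin. All genes were lower at 16.6% and 9.54% with the HDAC3 hairpins and 6.81% and 15.2% with the DNMT1 hairpins, and 22.2% of the sterol genes with shDNMT1#2 was near this background.

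Of the fatty acid genes, ACLY, ELOVL6 and HSD17B12 were called lower with at least 3 hairpins, SCD with the HDAC3 hairpins and ELOVL5 with shDNMT1#2, while FASN, the synthase itself, was higher with shHDAC3#1 and shDNMT1#2. ACLY, which makes cytosolic acetyl-CoA from citrate, gave 8.71 and 8.52 in shLuc, 8.09 and 8.36 in shHDAC3#1, 8.21 and 8.31 in shHDAC3#2, 7.93 and 7.65 in shDNMT1#1, and 8.34 and 8.06 in shDNMT1#2. All knockdown arrays were below the control, those of shDNMT1#1 most. It fell with shHDAC3#1 (-0.39, adjusted p = 0.024), shDNMT1#1 (-0.82, adjusted p = 0.0001) and shDNMT1#2 (-0.41, adjusted p = 0.016), and was at -0.35 with shHDAC3#2 (adjusted p = 0.071). Other ACLY probe sets, at means of 7.13 and 7, lay between -0.26 and 0.09. The calls with shHDAC3#1 (-0.20, adjusted p = 0.2) and shDNMT1#2 (-0.21, adjusted p = 0.18) were lost after a further quantile normalization. The former was lost without shLuc replicate 1 (-0.29, adjusted p = 0.28) or shHDAC3#1 replicate 1 (-0.25, adjusted p = 0.29), and the latter without shLuc replicate 1 (-0.32, adjusted p = 0.22) or shDNMT1#2 replicate 2 (-0.27, adjusted p = 0.21).

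FASN, which builds palmitate, gave 7.03 and 7.25 in shLuc and 7.29 to 7.54 in the knockdown arrays, all of which were above the control. The change was 0.40 with shHDAC3#1 (adjusted p = 0.0098) and 0.35 with shDNMT1#2 (adjusted p = 0.02), and 0.21 and 0.25 without a call with shHDAC3#2 and shDNMT1#1. Both calls were lost without shLuc replicate 1 (0.28, adjusted p = 0.17, and 0.24, adjusted p = 0.25). The first was lost without shHDAC3#1 replicate 1 or 2 (adjusted p = 0.064 and 0.061), and the second without shDNMT1#2 replicate 1 or 2 (0.1 and 0.072). ACACA, the carboxylase that makes malonyl-CoA, lay between -0.14 and 0.27 and passed the test with no hairpin; it was called higher with shHDAC3#1 (0.30) after a further quantile normalization.

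SCD, the stearoyl-CoA desaturase, gave 9.01 and 8.83 in shLuc, 7.85 and 8.05 in shHDAC3#1, 8.37 and 8.58 in shHDAC3#2, 8.88 and 8.66 in shDNMT1#1, and 8.86 and 8.78 in shDNMT1#2. The HDAC3 arrays lay below the control and the DNMT1 arrays overlapped it. SCD fell by 0.97 with shHDAC3#1 (adjusted p = 9.3e-07) and by 0.44 with shHDAC3#2 (adjusted p = 0.0083), and was at -0.15 and -0.10 with the DNMT1 hairpins. The shHDAC3#2 call was lost after a further quantile normalization (-0.25, adjusted p = 0.072), without shLuc replicate 1 (-0.35, adjusted p = 0.2) and without shHDAC3#2 replicate 1 (-0.34, adjusted p = 0.17). Dimmer SCD probe sets were at -0.35, 0.00 and -0.31 with shHDAC3#1 and at -0.22, -0.13 and -0.08 with shHDAC3#2. With shDNMT1#1 they were at -0.15, 0.05 and -0.04, and with shDNMT1#2 at 0.19, 0.29 and 0.39, above the control where the chosen probe set was below it. The desaturase FADS2 was between 0.09 and 0.23, with no call, and was called higher with shHDAC3#1 (0.26) and shDNMT1#2 (0.30) after a further quantile normalization.

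ELOVL6, which lengthens palmitate to stearate, gave 7.18 and 7.11 in shLuc, 6.32 and 6.32 in shHDAC3#1, 6.05 and 6.21 in shHDAC3#2, 6.84 and 6.60 in shDNMT1#1, and 5.86 and 5.83 in shDNMT1#2. All groups were below the control without overlap, in the order shDNMT1#2, shHDAC3#2, shHDAC3#1 and shDNMT1#1 from the lowest. The changes were -0.82, -1.01, -0.42 and -1.30 for shHDAC3#1, shHDAC3#2, shDNMT1#1 and shDNMT1#2, with adjusted p = 1.4e-05, 1.8e-06, 0.021 and 2.8e-08. Another probe set of nearly the same mean (6.37) was at 0.10, 0.05, -0.10 and -0.41, and the dimmest, at 4.54, between -0.41 and -0.27. The shDNMT1#1 call was lost without shLuc replicate 1 (-0.39, adjusted p = 0.22) and without shDNMT1#1 replicate 2 (-0.3, adjusted p = 0.28).

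HSD17B12, the reductase of the elongation cycle, gave 10.08 and 10.05 in shLuc, 9.43 and 9.65 in shHDAC3#1, 8.91 and 9.11 in shHDAC3#2, 9.76 and 9.65 in shDNMT1#1, and 6.88 and 7.24 in shDNMT1#2. The shDNMT1#2 arrays stood far below all others. There it fell by 3 ± 0.11 (limma SE, n = 2 against 2) on the log2 scale, to 12.5% of control (adjusted p = 1.1e-13). It fell by 0.52 with shHDAC3#1 (adjusted p = 0.0016) and by 1.05 with shHDAC3#2 (adjusted p = 9.6e-07). With shDNMT1#1 it was at -0.36 (adjusted p = 0.052). The shHDAC3#1 call was lost without shHDAC3#1 replicate 1 (-0.42, adjusted p = 0.056) and after a further quantile normalization (-0.24, adjusted p = 0.069). The other 3 probe sets had means of 3.61 to 4.26 and lay between -0.28 and 0.30.

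ELOVL5, which lengthens polyunsaturated fatty acids, gave 9.43 and 9.22 in shLuc, 8.29 and 8.25 in shDNMT1#2 and 9.12 to 9.33 in the other arrays. It was lower with shDNMT1#2 (-1.05, adjusted p = 6.6e-08) and between -0.14 and -0.05 with the others. The 3 other ELOVL5 probe sets, at means of 7.55, 6.49 and 6.33, were at 0.17, 0.08 and -0.04 with shDNMT1#2 and between -0.02 and 0.27 with the others. ELOVL5 was called higher with shHDAC3#1 (0.27) after a further quantile normalization. In the branch, 4 of 8 genes were lower with shHDAC3#1, 3 with shHDAC3#2, 2 with shDNMT1#1 and 4 with shDNMT1#2, beside 16.6%, 9.54%, 6.81% and 15.2% of all genes.

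Among the genes that control SREBP, both INSIG genes and the protease gene MBTPS2 fell, while SREBF2 and SCAP passed the test with no hairpin. INSIG1, itself a known SREBP target, gave 9.00 and 9.02 in shLuc, 7.54 and 7.75 in shHDAC3#1, 8.56 and 8.69 in shHDAC3#2, 9.17 and 8.86 in shDNMT1#1, and 8.33 and 8.60 in shDNMT1#2. Those of shDNMT1#1 lay on both sides of the control, and the other knockdown arrays lay below it. It was lower with shHDAC3#1 (-1.36 ± 0.11 limma SE, to 38.9% of control, adjusted p = 1.8e-08), shHDAC3#2 (-0.38, adjusted p = 0.034) and shDNMT1#2 (-0.54, adjusted p = 0.0014), and at 0.00 with shDNMT1#1. Another bright probe set was at -1.23, -0.43, -0.19 and -0.25, and another at -0.47, -0.29, -0.11 and -0.23. The calls with shHDAC3#2 (-0.18, adjusted p = 0.34) and shDNMT1#2 (-0.25, adjusted p = 0.09) were lost after a further quantile normalization. Leaving out shLuc replicate 1 or 2, or shHDAC3#2 replicate 1, also ended the first of these, at adjusted p = 0.21, 0.13 and 0.29.

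INSIG2, the second retention protein, gave 7 and 6.97 in shLuc, 5.61 and 5.09 in shHDAC3#1, 6.32 and 6.5 in shHDAC3#2, 6.68 and 6.38 in shDNMT1#1, and 6.41 and 6.60 in shDNMT1#2. All 8 knockdown arrays were below the control, with shHDAC3#1 lowest. The changes were -1.63, -0.58, -0.45 and -0.47, with adjusted p = 4.9e-08, 0.011, 0.065 and 0.022. The shHDAC3#2 call was lost without shLuc replicate 1 or 2 (adjusted p = 0.13 and 0.061) or shHDAC3#2 replicate 1 (0.16), and the shDNMT1#2 call without shLuc replicate 1 or 2 (0.16 and 0.07) or shDNMT1#2 replicate 1 (0.17). INSIG2 had 1 probe set.

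MBTPS2, which makes the second cut that frees SREBP, gave 7.76 and 7.46 in shLuc, 7.20 and 7.27 in shHDAC3#1, 6.79 and 7.02 in shHDAC3#2, 7.19 and 6.86 in shDNMT1#1, and 6.85 and 6.89 in shDNMT1#2. No knockdown array reached the control. The changes were -0.38, -0.71, -0.59 and -0.74, with adjusted p = 0.033, 0.00042, 0.0041 and 0.00014. Without shLuc replicate 1 the calls with shHDAC3#1 (-0.23, adjusted p = 0.4) and shDNMT1#1 (-0.43, adjusted p = 0.17) were lost. The first was lost without shHDAC3#1 replicate 1 or 2 (adjusted p = 0.19 and 0.084) and the second without shDNMT1#1 replicate 2 (0.093). A second MBTPS2 probe set (mean 6.35) gave -0.39, -0.25, -0.02 and 0.14, and the dimmest (mean 2.85) lay between -0.12 and 0.09. MBTPS1, which makes the first cut, was lower with shHDAC3#1 (-0.30, adjusted p = 0.046), a call kept under 4 of 18 alternatives and lost without any 1 array of shLuc, shHDAC3#1, shHDAC3#2 or shDNMT1#2 (0.055 to 0.28), and its other probe set lay between 0.01 and 0.10. In the branch, 4 of 7 genes were lower with shHDAC3#1, 3 with shHDAC3#2, 1 with shDNMT1#1 and 3 with shDNMT1#2, against 16.6%, 9.54%, 6.81% and 15.2% of all genes.

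SREBF1, which encodes the SREBP linked to fatty acid genes, gave 7.40 and 7.48 in shLuc and 7.56 to 7.87 in the knockdown arrays. It was called higher with shDNMT1#2 (0.36, adjusted p = 0.0089; 0.33, adjusted p = 0.085, without shLuc replicate 1, and 0.3, adjusted p = 0.1, without shDNMT1#2 replicate 2) and lay between 0.17 and 0.20 with the others, of which shHDAC3#1 was called after a further quantile normalization (0.26). Its second probe set (mean 7.12) went the other way, at -0.22, -0.40, -0.07 and -0.12. SREBF2, which encodes the SREBP of cholesterol synthesis, lay between 0.04 and 0.16 and was not called, but was called higher after a further quantile normalization with shHDAC3#1 (0.36) and shDNMT1#2 (0.24). SCAP, the escort, lay between -0.15 and 0.13; it was called higher with shDNMT1#2 (0.27) after that normalization.

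Of the 2 measured genes that move sterols, STARD4, a cytosolic cholesterol carrier, gave 6.39 and 6.21 in shLuc, 6.03 and 6.28 in shHDAC3#1, 5.58 and 5.82 in shHDAC3#2, 6.22 and 6.20 in shDNMT1#1, and 5.90 and 5.63 in shDNMT1#2. It was lower with shHDAC3#2 (-0.60, adjusted p = 0.003) and shDNMT1#2 (-0.53, adjusted p = 0.0047), both calls being lost without shLuc replicate 1 (adjusted p = 0.091 and 0.096), the first also without shHDAC3#2 replicate 1 (0.095) and the second without shDNMT1#2 replicate 2 (0.082). ABCA1, the cholesterol exporter that the LXR receptors switch on, lay between 0.23 and 0.33 with every hairpin and was not called. Its 2 dimmest probe sets, at means of 4.15 and 3.70, were at 0.73 and 0.99 with shHDAC3#1 and between -0.20 and 0.04 with the other hairpins, and were not tested on their own.

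**Figure D4:**
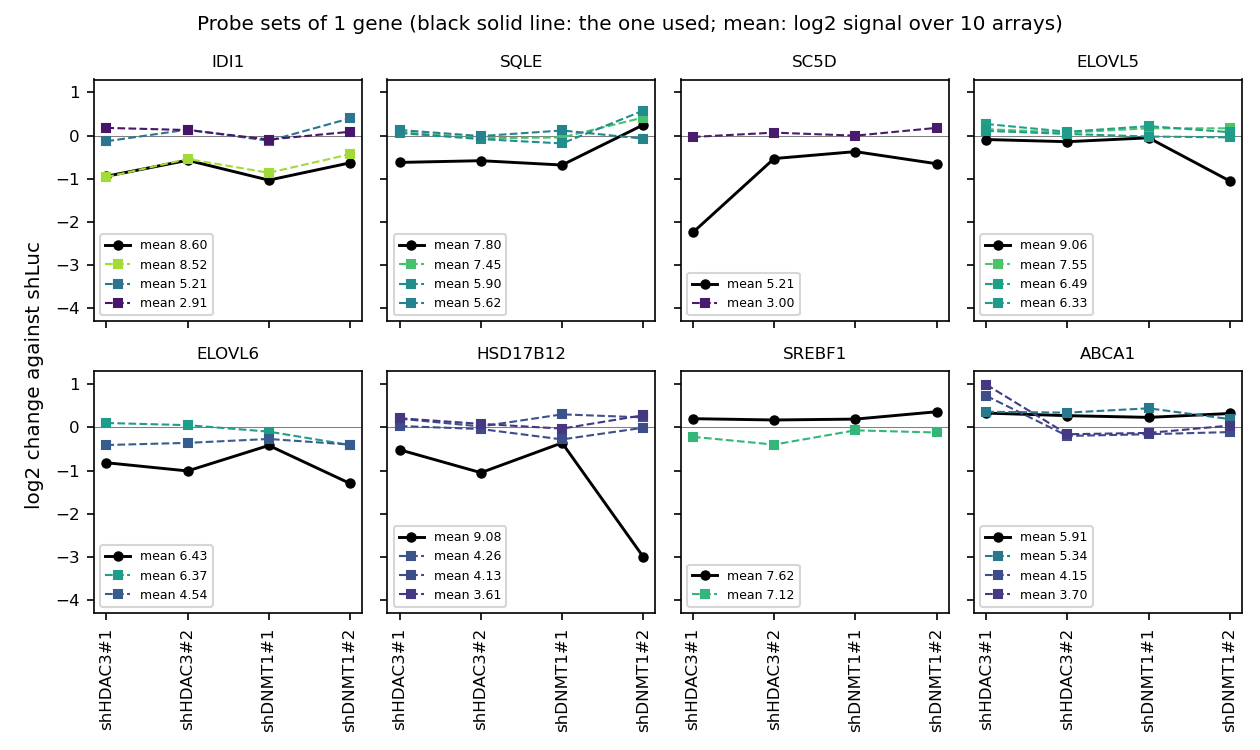
Log2 change against shLuc (vertical axis) with each hairpin (horizontal axis) for every probe set of 8 genes; the black solid line is the probe set used, and the legend gives the mean log2 signal of each over the 10 arrays. The 2 bright IDI1 probe sets run together, those of SREBF1 lie on opposite sides of 0, and the drops of HSD17B12 to -3 and ELOVL5 to -1.05 with shDNMT1#2 appear in the brightest probe set alone.

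Of the 33 members, 23 had more than 1 probe set. Where a called member had another probe set with a mean of at least 6.39, the median level of all genes, these others had the sign of the chosen probe set in 8 of 11 cases with shHDAC3#1, 9 of 9 with shHDAC3#2, 5 of 5 with shDNMT1#1 and 5 of 10 with shDNMT1#2. The median changes of these other probe sets were -0.09, -0.43, -0.25 and -0.04. With the mean of all probe sets of a gene in place of the brightest, every call of SQLE, MBTPS2, MBTPS1, ELOVL5 and SREBF1 with a hairpin was lost. So were those of HSD17B12 with both HDAC3 hairpins, IDI1 and SC5D with shHDAC3#2 and shDNMT1#2, ACLY with shHDAC3#1 and shDNMT1#2, LSS and SCD with shHDAC3#2, and ELOVL6 with shDNMT1#1. Such a mean takes in dim probe sets, in which changes can be understated. Their mean signals were 3.61 to 4.26 for HSD17B12, 2.91 for the dimmest of IDI1, 3 for SC5D and 2.85 for the dimmest of MBTPS2. The second HMGCS1 probe set was at -0.29, -0.57, -0.25 and -0.85. Those of LSS were at -0.31, -0.22, -0.12 and -0.02 and, at a mean of 5.06, between -0.02 and 0.15. A second DHCR7 probe set was at -0.10, -0.20, -0.21 and 0.37, and a second ACACA probe set at 0.04, -0.07, -0.37 and 0.16. For MVK the others lay between -0.04 and 0.22, and for SREBF2 between -0.10 and 0.13.

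Next, the hairpins of each target were set against each other, a comparison that does not use shLuc. Between shHDAC3#2 and shHDAC3#1, 5 of 33 members were lower (15.2%) and 7 higher, against 3.75% of all genes lower and 8.85% higher (12.6% in either direction). SC5D (1.71, adjusted p = 1.7e-07), INSIG2 (1.05, adjusted p = 2.1e-05), INSIG1 (0.98, adjusted p = 2.2e-06), LSS (0.72, adjusted p = 3.6e-05) and SCD (0.53, adjusted p = 0.0015) were higher with shHDAC3#2, that is, less reduced. HSD17B12 (-0.53, adjusted p = 0.0021), STARD4 (-0.46, adjusted p = 0.022) and HMGCS1 (-0.41, adjusted p = 0.015) were lower. The count went from 12 to 6 without shHDAC3#1 replicate 1 and to 5 without replicate 2.

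Between shDNMT1#2 and shDNMT1#1, 7 of 33 members were lower (21.2%) and 3 higher, against 8.39% and 3.57% of all genes (12% in either direction). HSD17B12 (-2.64, adjusted p = 1.1e-12), ELOVL5 (-1, adjusted p = 2.9e-07), ELOVL6 (-0.87, adjusted p = 1.3e-05), HMGCS1 (-0.74, adjusted p = 6.3e-05) and INSIG1 (-0.55, adjusted p = 0.0023) were lower with shDNMT1#2. SQLE (0.93, adjusted p = 1.8e-06), ACLY (0.41, adjusted p = 0.03) and IDI1 (0.40, adjusted p = 0.013) were higher. By their brightest probe sets, the elongation genes ELOVL5, ELOVL6 and HSD17B12 were thus all lower with shDNMT1#2 than with shDNMT1#1. The other probe sets of ELOVL5 lay between -0.14 and 0.01 and those of HSD17B12, all dim, between -0.07 and 0.31. Those of ELOVL6 were at -0.31 and -0.12. Without shDNMT1#2 replicate 1 the count went from 10 to 6.

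**Figure D5:**
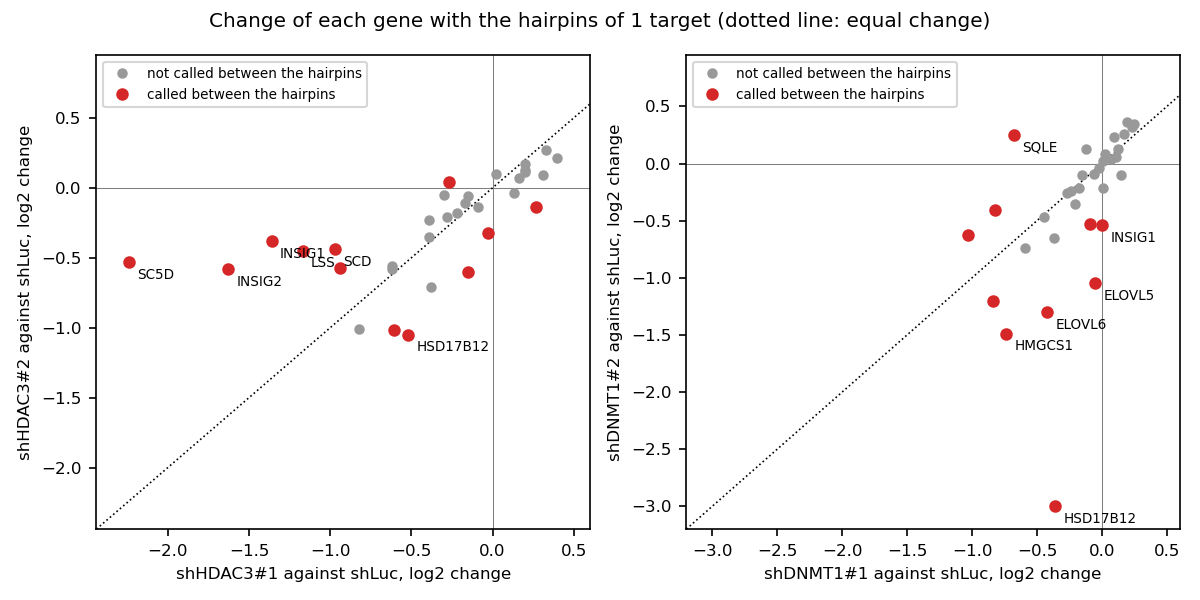
Log2 change of each gene against shLuc with the second hairpin (vertical axis) and the first hairpin (horizontal axis) of HDAC3 (left) and DNMT1 (right), with a dotted line where both are equal. Red points passed the test between the hairpins, 12 for HDAC3 and 10 for DNMT1, and names are given where the changes differ by more than 0.5; both axes share the shLuc arrays.

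With both hairpins of a target averaged (n = 4 against 2), 15 of 33 members were lower in HDAC3 knockdown (45.5%) and 1, FASN, was higher, against 15.3% and 3.96% of all genes (19.2% in either direction). In DNMT1 knockdown 12 were lower (36.4%) and 2, FASN and SREBF1, were higher, against 13.5% and 6.66% (20.2% in either direction). The gap was narrower among genes at or above the median level. There 48.3% of the members were called in either direction in HDAC3 knockdown, against 37.4% of all such genes. The averaged DNMT1 count and the counts by branch are not set against genes of this level here. Without shLuc replicate 1 the DNMT1 count went from 14 to 8. These counts take the difference between hairpins as fixed. With the hairpin as a random block, limma called 0 members in HDAC3 knockdown and 1 in DNMT1 knockdown, while 12 and 10 had an unadjusted p under 0.05. With the SD of each array as a covariate, limma called 0 and 2 members, with 10 and 7 at an unadjusted p under 0.05. After a further quantile normalization the counts were 13 lower and 5 higher, and 11 lower and 6 higher. A stricter setting asked both hairpins for the same direction and an unadjusted limma p under 0.05. It kept 14 of the calls in HDAC3 knockdown, where FASN and STARD4 were lost. In DNMT1 knockdown it kept 12, and ELOVL5 and SREBF1 were lost.

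Of 58 measured genes of isoprenoid side branches, sterol transport, LXR targets, SREBP regulators, fatty acid supply and electron donors, 18 were lower (31%) and 1 higher in HDAC3 knockdown, beside 15.3% and 3.96% of all genes. In DNMT1 knockdown 10 were lower (17.2%) and 2 higher, beside 13.5% and 6.66%, which is near the background. Their medians were -0.08 and -0.11, where all genes had 0.05 and 0.07. By hairpin, 21 were lower with shHDAC3#1 (36.2%) and 9 with shHDAC3#2 (15.5%), beside 16.6% and 9.54% of all genes. With shDNMT1#1 and shDNMT1#2, 9 (15.5%) and 15 (25.9%) were lower, beside 6.81% and 15.2%. These 58 genes were not set against genes of their level. In HDAC3 knockdown the elongase ELOVL7 (-1.05), PAQR3, which holds SCAP and SREBP at the Golgi (-0.88), and HACD2, a dehydratase of the elongation cycle (-0.77), fell most, with adjusted p = 2.3e-06, 2e-05 and 0.00016. In DNMT1 knockdown these were the dehydratase HACD3 (-0.83), the lipoprotein receptor VLDLR (-0.75) and HACD2 (-0.72), with adjusted p = 2.5e-07, 3.8e-05 and 0.00035. The acyl-CoA synthetase ACSL1 was higher in both (0.42 and 0.33, adjusted p = 0.0056 and 0.028), and ERLIN1, an endoplasmic reticulum protein that binds cholesterol, in DNMT1 knockdown (0.31, adjusted p = 0.028). By hairpin, HACD2 was at -0.87, -0.67, -0.49 and -0.96 for shHDAC3#1, shHDAC3#2, shDNMT1#1 and shDNMT1#2, and ELOVL7 at -1.32, -0.77, -0.63 and -0.51. Of the 5 LXR targets and partners, limma called 0 in either knockdown, with 0 in HDAC3 knockdown and 2 in DNMT1 knockdown (NR1H3 at 0.30 and LPCAT3 at 0.26) at an unadjusted p under 0.05.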

How the data were processed

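The deposited values are log2 signals per probe set of an Affymetrix 3′ expression array, made by the authors with RMA, per the submitters' processing notes; the log2 scale was read from the values. RMA corrects background, quantile-normalizes probes and summarises each probe set. The sources used here give neither its version nor whether the 10 arrays were run as 1 set. Changes of dim transcripts can be understated, and the number of arrays limits the precision. Of 54675 probe sets, 41097 had 1 gene symbol and gave 19775 genes, keeping for each the probe set of highest mean. In R 4.3.3, limma 3.58.1 (lmFit; eBayes, trend on) fitted 1 model of 5 groups, with 5 residual degrees of freedom, two-sided; Benjamini-Hochberg adjustment ran across the whole table. The test was checked on simulated data for each hairpin against shLuc. It recovered 63% to 80% of log2 changes of 0.5 and 100% of those of 1. Unchanged genes made up 7 to 16 of the 175 to 196 calls. The hairpin comparisons of the real data called 1611 to 5302 genes, so this share need not hold for them. Named genes were all members, both targets, and up to 3 other pathway genes called in each direction with the largest change in each knockdown. Other probe sets of a member were given where they had another sign or differed by over 0.5. The members and lists were chosen with earlier results of these data known. Of 64 other pathway genes 58 were measured; markers of T cells, monocytes, fibroblasts, hepatocytes and adipocytes differed by at most 1.1 in their summed log2 signal between arrays. Promoters are from RefSeq (GRCh38.p14), where 29 members matched by symbol.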

Additional observations from a re-analysis of the deposited data

Results flagged for a closer look

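The changes of these members against shLuc differed between the 2 hairpins of 1 target, by a limma test of the difference with an adjusted p under 0.05. Between shHDAC3#2 and shHDAC3#1 the differences on the log2 scale were 1.71 for SC5D, 1.05 for INSIG2, 0.98 for INSIG1, 0.72 for LSS, 0.53 for SCD, 0.36 for IDI1 and 0.32 for PMVK. They were -0.53 for HSD17B12, -0.46 for STARD4, -0.41 for HMGCS1, -0.41 for ACACA and -0.29 for EBP. INSIG1, INSIG2 and LSS kept this call under every alternative tried, and EBP under 9 of 18. Between shDNMT1#2 and shDNMT1#1 the differences were -2.64 for HSD17B12, -1 for ELOVL5, -0.87 for ELOVL6, -0.74 for HMGCS1, -0.55 for INSIG1, -0.44 for STARD4 and -0.36 for MSMO1. They were 0.93 for SQLE, 0.41 for ACLY and 0.40 for IDI1. HSD17B12, ELOVL5, ELOVL6, HMGCS1 and SQLE kept the call under every alternative tried, and MSMO1 under 13 of 18.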

How the results depend on the processing

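Of 1964 recomputed changes of called members, 1676 kept direction and call, 271 kept the direction and lost the call, and 17 changed sign. Members called went from 18 to 10 with shHDAC3#1, from 14 to 9 in DNMT1 knockdown and from 12 to 7 between the HDAC3 hairpins without probe sets that can cross-hybridize, where only 24 members had a probe set; the shares called went from 54.5% to 41.7%, from 42.4% to 37.5% and from 36.4% to 29.2%. Averaging the probe sets of each gene, they went from 14 to 7 with shHDAC3#2, from 7 to 4 with shDNMT1#1 and from 14 to 9 in DNMT1 knockdown. A random hairpin block gave 0 and 1, and the array SD as a covariate 0 and 2, in HDAC3 and DNMT1 knockdown, the second of these adding a term that separates shLuc from the other arrays; the cause was not tested. Leaving out 1 array gave 10 to 21 with shHDAC3#1, 7 to 15 with shHDAC3#2, 5 to 11 with shDNMT1#1, 9 to 18 with shDNMT1#2, 11 to 18 in HDAC3 knockdown, 8 to 16 in DNMT1 knockdown, and 5 to 13 and 6 to 10 between the hairpins of HDAC3 and DNMT1. The dim filter, centring, eBayes without the trend and only the arrays of a comparison kept each count within 1.5 times. Replicate numbers did not pair the arrays (correlations of replicate differences between -0.34 and 0.27, 2 of 10 over 0.1), and with the replicate block the counts were 16, 13, 7 and 15 for the 4 hairpins, 16 and 13 for the knockdowns, and 11 and 10 between hairpins. The sign changed without probe sets that can cross-hybridize for IDI1, to 0.18 (shHDAC3#1), 0.13 (shHDAC3#2), 0.09 (shDNMT1#2), 0.16 and 0.00 (HDAC3 and DNMT1 knockdown) and -0.05 (between HDAC3 hairpins), and for SC5D, to 0.07 (shHDAC3#2), 0.18 (shDNMT1#2), 0.02 and 0.09 (HDAC3 and DNMT1 knockdown), each from a dim probe set. It changed for FDPS with shDNMT1#2, to 0.02, after a further quantile normalization. With the array SD as a covariate, MSMO1 (0.07), ACLY (0.21) and STARD4 (0.15) changed sign in HDAC3 knockdown, and FDPS (0.03), LSS (0.10) and SC5D (0.24) in DNMT1 knockdown.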
